A study of Sus scrofa with 6 samples.

Results

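The 7 genes described here encode the enzymes that oxidise or excise modified and damaged pyrimidines in DNA: the dioxygenases TET1, TET2 and TET3 and the DNA glycosylases TDG, MBD4, SMUG1 and UNG. They were taken by gene symbol from the 30376 genes of the series table, each matched 1 row, and all 7 had enough reads to be tested. RNA came from pig 4-cell embryos in 6 libraries. In 3 libraries the embryos had been cultured at 41.5 °C, the high temperature, and the genotype field of these libraries reads HT. In the other 3 libraries, labelled WT, the embryos had been cultured at 38.5 °C, the control temperature. All embryos came from oocytes activated by 2 direct-current pulses of 120 V lasting 60 µs, with no sperm mentioned. All were kept for 4 days in PZM-5 medium with 4 mg/mL BSA (bovine serum albumin), under oil and 5% CO2. The labels speak of about 300 samples at the 4-cell stage without saying whether that is per library, so each library is a pool of embryos of unstated number. Whether replicates were separate cultures is not said, so the p-values cover library-to-library spread that may be technical.

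TET enzymes oxidise the methyl group of methylcytosine stepwise to hydroxymethyl, formyl and carboxyl forms. TDG excises the formyl and carboxyl forms, and base excision repair fills the gap with unmodified cytosine. MBD4 binds methylated CpG and removes thymine or uracil left opposite guanine by deamination, while SMUG1 and UNG remove uracil from DNA, and SMUG1 also removes hydroxymethyluracil. In the mouse zygote, maternally stored TET3 oxidises methylcytosine, mostly on the paternal genome. The question of the series is what heat does to the activation of the embryo's own genome, which in the pig falls at the 4-cell stage.

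Total counts were 28114005 to 30079385 reads per library, and values are given as CPM, reads per 1e6 reads of library sizes scaled by the trimmed mean of M values. All 19 oocyte and embryo markers found in the table were tested, with summed levels of 3641 to 3992 CPM at 41.5 °C and 4125 to 4227 CPM at 38.5 °C. DPPA3 alone averaged 1347 CPM at 41.5 °C and 1841 CPM at 38.5 °C and weighs heavily in these sums. Of the 19 markers 10 were higher and 9 lower at 41.5 °C, with a median log2 fold change of 0.01. By edgeR 0 were called, and 0 had groups that did not overlap in CPM. Summed cumulus and granulosa markers were at 23.6 to 24.8 CPM at 41.5 °C and 21.3 to 25.3 CPM at 38.5 °C. Of these 18 markers 13 averaged below 1 CPM, and 5, FSHR, CYP11A1, INHA, AMH and FOXL2, had no read in any library. Others were present, among them INHBA at 8.81 CPM at 41.5 °C and 7.08 CPM at 38.5 °C, and FST at 4.00 and 2.95 CPM. INHBA and FST were the only 2 of the 8 tested markers of this list that were higher at 41.5 °C. The other 6 were lower, the median log2 fold change was -0.19, and edgeR called 0. The groups of FST did not overlap in CPM, as in 7.71% of all tested genes. Some signal of this list is thus not absent, and its source was not tested. Of 15 stromal, blood, endothelial and epithelial markers 10 averaged below 1 CPM, and their sum of 118 to 147 CPM at 41.5 °C and 110 to 180 CPM at 38.5 °C came mostly from EPCAM, an epithelial adhesion gene. In bulk RNA of pooled embryos, fewer cells that express a gene and less RNA per cell cannot be told apart.

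Levels of different genes were compared per transcript length, in TPM as deposited by the authors. TDG was the most abundant of the 7 genes at 50.2 ± 15.3 TPM (SD, n = 6 libraries), above 90.2% of the tested genes. UNG followed at 13.2 ± 3.14 TPM, MBD4 at 4.55 ± 0.666 TPM and TET1 at 3.29 ± 1.07 TPM. TET3 at 1.62 ± 0.823 TPM and TET2 at 1.6 ± 0.201 TPM were near the middle of the tested genes, and SMUG1 was lowest at 1.0 ± 0.326 TPM. The ranges of TDG, UNG and MBD4 did not overlap. MBD4 exceeded TET1 in 5 of 6 libraries and TET1 exceeded TET3 in 6 of 6, although in each case the ranges over libraries overlapped. TET3 and TET2 did not differ beyond their spread, with TET3 the higher in 2 of 6 libraries, and TET2 exceeded SMUG1 in 5 of 6. The group means followed the same order at 41.5 °C, and at 38.5 °C only TET3 and TET2 changed places. TET1, TET3, TDG and UNG each rest on 1 annotated transcript model, so isoforms, such as the nuclear and mitochondrial forms of UNG known in human, were not separated.

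**Figure D1:**
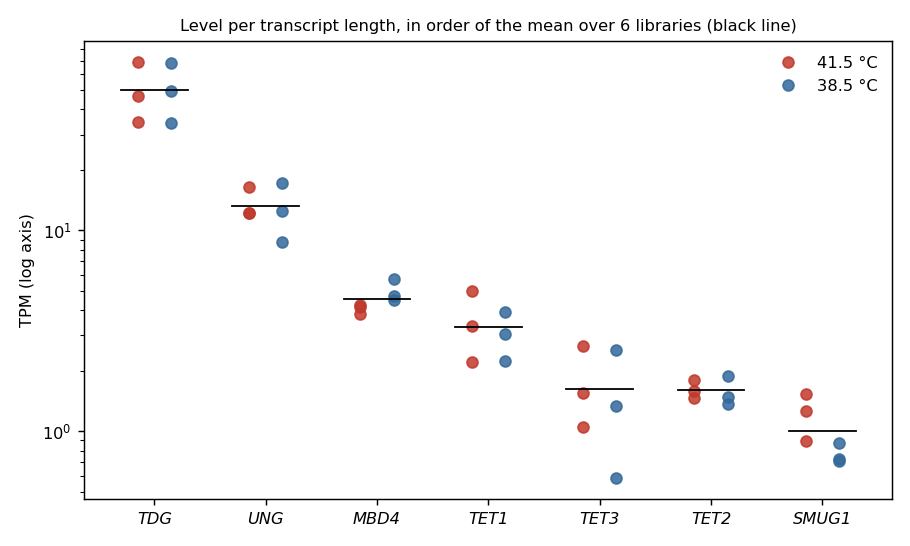
TPM of the 7 genes on a log axis, with 1 point per library at 41.5 °C (left of each pair) and at 38.5 °C (right) and a black line at the mean of the 6 libraries. TDG lies above UNG and UNG above MBD4 in every library, while TET3 spans 0.585 to 2.66 TPM and covers the whole range of TET2.

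Among the TET genes, no difference between temperatures exceeded the spread between libraries. TET1 had 10.9, 16.4 and 22.4 CPM at 41.5 °C, against 13.0, 14.8 and 18.3 CPM at 38.5 °C. The highest and the lowest of the 6 values were both heated libraries, and the control values lay between them. TET2, which unlike TET1 and TET3 carries no DNA-binding CXXC domain in mammals, had 11.9, 14.1 and 11.4 CPM at 41.5 °C, against 13.0, 14.9 and 11.2 CPM at 38.5 °C. It was the steadiest of the 7 genes, and the groups overlapped almost fully. TET3 had 9.89, 14.5 and 22.7 CPM at 41.5 °C, against 6.54, 12.4 and 22.3 CPM at 38.5 °C. Its highest values, in replicate 3 of each temperature, were nearly equal, and its lowest was control replicate 1. Highest over lowest library was 3.48-fold for TET3, 2.05-fold for TET1 and 1.33-fold for TET2.

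The coefficient of variation over the 6 libraries was 44.8% for TET3, larger than in 80.8% of the tested genes, and 11.9% for TET2, where only 8.81% of the tested genes had a smaller one. The median over all tested genes, which include genes with fewer reads and hence more counting error, was 27.6%. TET1 stood near the middle with 25.3%. The log2 fold change, 41.5 °C over 38.5 °C, was 0.11 (standard error 0.30) for TET1, -0.07 (0.22) for TET2 and 0.19 (0.47) for TET3. The 95% interval ran from -0.57 to 0.79 for TET1, from -0.57 to 0.44 for TET2 and from -0.89 to 1.26 for TET3. A 2-fold change in either direction thus lay outside the interval of TET1 and TET2, but a 2-fold rise of TET3 did not. That limit depends on the fit. With replicate number added as a block, the log2 fold change of TET3 was 0.27 (95% interval -0.09 to 0.63).

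TDG and UNG, the most abundant glycosylases, also overlapped between temperatures. TDG had 168, 112 and 76.4 CPM at 41.5 °C, against 196, 118 and 78.5 CPM at 38.5 °C. The libraries numbered 1 were high and those numbered 3 low at each temperature, the reverse of TET3. UNG had 19.5, 19.4 and 24.0 CPM at 41.5 °C, against 16.6, 19.6 and 25.8 CPM at 38.5 °C, and the control values enclosed the heated ones. The log2 fold change was -0.14 (95% interval -1.04 to 0.76) for TDG and 0.02 (-0.52 to 0.56) for UNG. With replicate number added as a block, it was -0.11 (-0.36 to 0.14) for TDG and 0.03 (-0.28 to 0.35) for UNG.

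MBD4 and SMUG1 were the 2 genes whose libraries did not overlap between temperatures, in opposite directions. MBD4 had 6.67, 7.44 and 6.83 CPM at 41.5 °C, against 10.04, 8.48 and 9.13 CPM at 38.5 °C. All 3 heated libraries lay below all 3 controls, with means of 6.98 ± 0.402 CPM at 41.5 °C and 9.22 ± 0.783 CPM at 38.5 °C (SD, n = 3 each), 1.32-fold lower. SMUG1 had 4.18, 2.47 and 3.20 CPM at 41.5 °C, against 2.19, 2.41 and 1.93 CPM at 38.5 °C. All heated libraries lay above the controls, though heated replicate 2, with 71 reads, and control replicate 2, with 70 reads, almost touched. The means were 3.28 ± 0.857 CPM at 41.5 °C and 2.18 ± 0.244 CPM at 38.5 °C (SD, n = 3 each), 1.51-fold higher. Both genes also failed to overlap in the authors' TPM values. The log2 fold change was -0.40 (standard error 0.21, 95% interval -0.88 to 0.08) for MBD4 and 0.59 (0.28, -0.06 to 1.25) for SMUG1. Neither passed the test, with edgeR quasi-likelihood p of 0.0913 for MBD4 and 0.0709 for SMUG1 before adjustment and 0.999923 after it. SMUG1 rests on 57 to 122 reads per library.

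**Figure D2:**
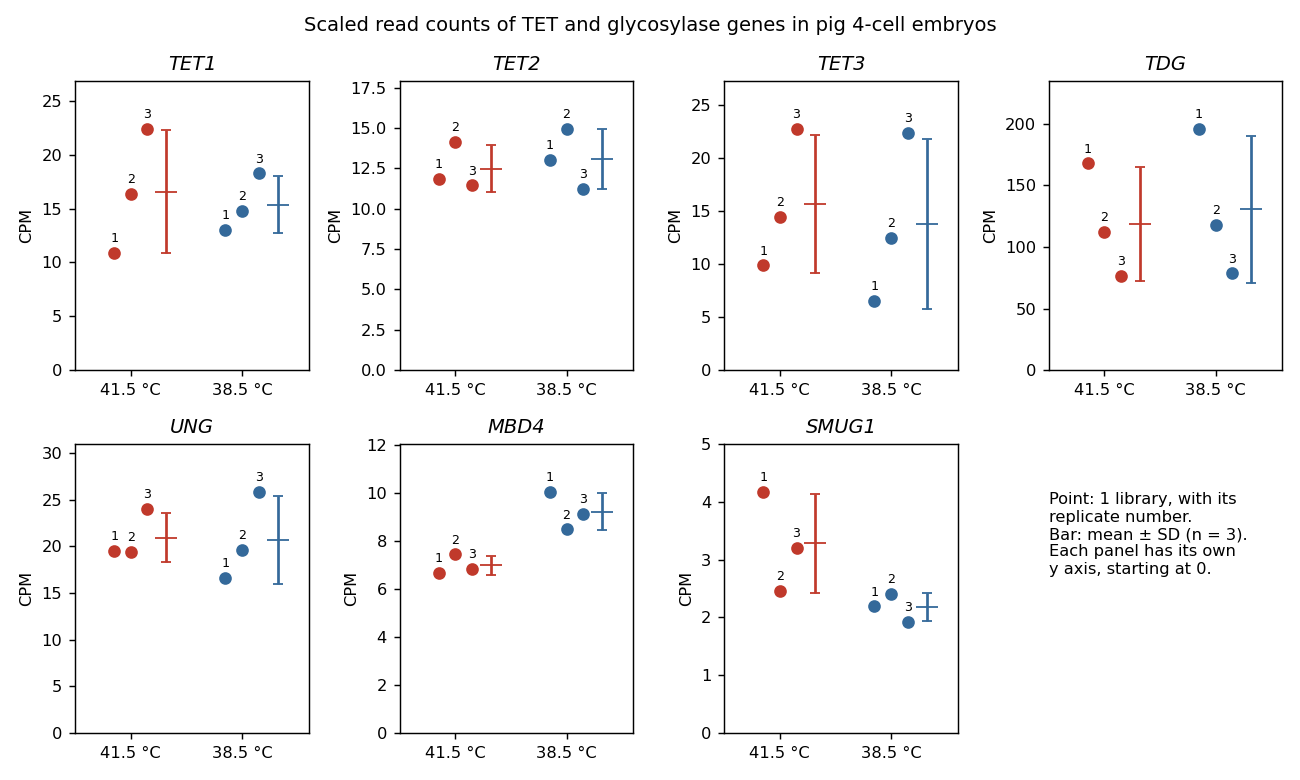
CPM of each gene in each library, with heated libraries on the left and control libraries on the right of each panel, replicate numbers above the points, and mean ± SD (n = 3) beside them. The groups are apart for MBD4 and SMUG1, while for TET1, TET2, TET3, TDG and UNG the spread within a temperature is wider than the distance between the means.

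By edgeR 0 of the 7 genes passed the adjusted threshold of 0.05, and over all 16056 genes tested edgeR called 0.0%. DESeq2 called 0 of the 7, and 0.0202% of the genes it tested. An unadjusted edgeR p below 0.05 was reached by 0 of the 7 and by 1.85% of all tested genes. With 4 genes higher and 3 lower, of which TET2 turned higher with no scaling beyond the library total, the median log2 fold change of the 7 was 0.02, beside -0.02 over all tested genes. Non-overlapping groups occurred in 7.71% of the tested genes, 3.66% higher and 4.05% lower at 41.5 °C, and in 1 higher and 1 lower of the 7. In the edgeR fit without a replicate term, the whole 95% interval lay within 2-fold either way for TET1, TET2, MBD4 and UNG, 4 of the 7 genes (49.7% of all tested genes). It lay within 4-fold for all 7 (91.8%). The direction of 5 genes turned when 1 library was left out. Without heated replicate 3 the log2 fold change was -0.14 for TET1, 0.02 for TET2, -0.15 for TET3, 0.14 for TDG and -0.06 for UNG. Without control replicate 1 it was -0.15 for TET3, 0.27 for TDG and -0.12 for UNG, and without control replicate 2 it was 0.04 for TET2 and -0.02 for UNG. With each library left out, MBD4 stood at -0.46 to -0.34 and SMUG1 at 0.38 to 0.76. Their groups did not overlap, so leaving out 1 library could hardly turn their direction.

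**Figure D3:**
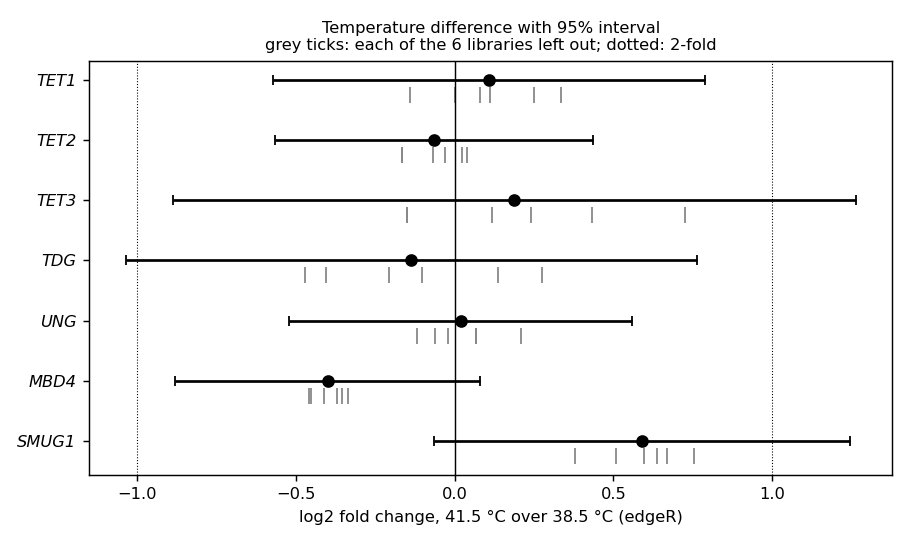
Log2 fold change of each gene, 41.5 °C over 38.5 °C, from edgeR, with 95% intervals (black) and the values with each of the 6 libraries left out in turn (grey ticks), and dotted lines at a 2-fold change. Every interval holds 0, and only MBD4 and SMUG1 have all their ticks on 1 side of it, which follows from groups that do not overlap.

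Reads carry no strand mark with this library kit, and how reads in 2 overlapping genes were assigned is not stated. TET3 (chromosome 3, 68918896 to 69020406, minus strand, Sscrofa11.1) shares 342 bases at its start with LOC102163719 (69020065 to 69025604, plus strand). LOC102163719 was at 2.53 ± 0.730 CPM at 41.5 °C and 2.44 ± 1.07 CPM at 38.5 °C (SD, n = 3 each), and with it added TET3 had 18.2 ± 7.22 CPM at 41.5 °C and 16.2 ± 9.06 CPM at 38.5 °C. TDG (chromosome 5, 80473233 to 80492295, minus strand) shares 732 bases at its end with GLT8D2 (80409915 to 80473964, plus strand). The sum of TDG and GLT8D2 was at 163 ± 46.1 CPM at 41.5 °C and 176 ± 61.6 CPM at 38.5 °C. TET1 (chromosome 14, 71675671 to 71812732, plus strand) contains the pseudogene LOC106508086, which had 0 reads in all 6 libraries. TET2 (chromosome 8, 116413253 to 116546976), SMUG1 (chromosome 5, 19375244 to 19412656) and UNG (chromosome 14, 41746498 to 41757841) overlapped no other annotated gene and lie on the minus strand.

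MBD4 (chromosome 13, 68816677 to 68828559, minus strand) overlapped no gene, but its start lies 150 bases from that of IFT122 on the plus strand (68828710 to 68902062), a gene of intraflagellar transport in cilia. IFT122, described after its values were seen, had 1.75, 1.46 and 1.70 CPM at 41.5 °C, against 0.577, 0.862 and 1.26 CPM at 38.5 °C. The divergent neighbours thus lay in opposite directions between the temperatures, each without overlap of the groups, as did 7.71% of all tested genes. IFT122 rests on only 15 to 52 reads per library. IFT122 did not pass the test either (log2 fold change 0.85, standard error 0.36; edgeR unadjusted p = 0.0439, adjusted p = 0.999923). MBD4 and IFT122 together were at 8.62 ± 0.248 CPM at 41.5 °C and 10.1 ± 0.680 CPM at 38.5 °C (SD, n = 3 each).

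The balance within each enzyme class was set out as shares of summed TPM within a library. By TPM, TET1 was the largest of the 3 TET transcripts in all 6 libraries, with 46.6% to 54.0% of their sum at 41.5 °C and 48.5% to 53.3% at 38.5 °C. TET3 took 22.2%, 23.1% and 28.8% at 41.5 °C, against 13.96%, 21.4% and 31.8% at 38.5 °C, and TET2 took 17.2% to 31.2% at 41.5 °C, against 18.6% to 32.8% at 38.5 °C. The control shares of TET3 enclosed the heated ones. In CPM, which ignores length, TET3 exceeded TET1 in heated replicate 3 (22.7 against 22.4) and control replicate 3 (22.3 against 18.3). TET2 exceeded TET1 in heated replicate 1 (11.9 against 10.9 CPM) and control replicate 2 (14.9 against 14.8 CPM). In control replicate 1 TET1 and TET2 were equal at 13.0 CPM, and TET1 was highest in heated replicate 2 (16.4 CPM). The lead of TET1 thus depends on the transcript lengths behind TPM. TDG took 61.1% to 79.7% of the summed glycosylase TPM at 41.5 °C and 59.2% to 82.9% at 38.5 °C. UNG took 14.1%, 19.1% and 29.2% at 41.5 °C, against 10.7%, 18.5% and 29.6% at 38.5 °C. The ratio of TDG to UNG therefore ranged from 2.09 to 5.66 within heated libraries and from 2.0 to 7.74 within controls. Summed glycosylase over summed TET transcripts was 11.3 ± 6.27 at 41.5 °C and 12.5 ± 6.32 at 38.5 °C (SD, n = 3 each).

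Of the 21 pairs of the 7 genes, 1 passed adjustment across the 6 libraries by Pearson's r and 0 by Spearman's rho. TET3 and TDG ran in exactly opposite order over the libraries (Spearman's rho -1, Pearson's r = -0.987 on log2(CPM + 1), n = 6). The two-sided exact permutation p was 0.00139 for r, the smallest 6 libraries allow, and 0.00278 for rho, or 0.0292 and 0.0583 after Benjamini-Hochberg adjustment over the pairs. These p-values treat the 6 libraries as independent. Libraries numbered 1, and those numbered 3, deviated together across temperatures (r = 0.516 and 0.586 over all genes), so the p-values may be too small. Without the 2 libraries farthest from the median of TET3, heated replicate 3 and control replicate 1, r was -0.977 over 4 libraries, and it was -0.998 within the 3 heated and -0.999 within the 3 control libraries. TET3 went with UNG (r = 0.946, rho 0.771) and with TET1 (r = 0.854, rho 0.943), and TDG went against TET1 (r = -0.907, rho -0.943) and against UNG (r = -0.917, rho -0.771). None of these 4 pairs passed adjustment, with exact permutation p adjusted to 0.0972 to 0.117 for r and 0.0875 to 0.360 for rho. Of the 4 pairs, TET1 with TET3 had r = 0.983, and TET1 with TDG r = -0.967, without heated replicates 1 and 3, the farthest on TET1. TET3 with UNG had r = 0.888 and TDG with UNG r = -0.816 without heated replicate 3 and control replicate 1, the farthest on TET3 and on TDG. MBD4 and SMUG1 had r = -0.848 and rho -0.943 (adjusted exact permutation p = 0.105 and 0.0875). As they were apart between temperatures in opposite directions, these values in part restate that difference. For this pair r was -0.926 without heated replicate 1 and control replicate 1, the farthest on MBD4. It was -0.645 without heated replicates 1 and 3, the farthest on SMUG1. The r of MBD4 and SMUG1 was -0.945 within the heated and -0.363 within the control libraries, 3 libraries each, which allow no test.

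The opposite courses of TET3 and TDG were shared by many transcripts. Among the other 8060 genes of at least 5 CPM with a symbol, 21.7% had r of -0.9 or below with TET3 and 13.4% had r of 0.9 or above. In that order the shares with TDG were 14.4% and 21.6%, with TET1 5.1% and 6.19%, with UNG 12.3% and 7.03%, with TET2 0.298% and 0.161%, with MBD4 0.533% and 0.943% and with SMUG1, over 8061 genes, 0.943% and 0.422%. Transcripts of 81 ribosomal protein genes summed to 13350, 9265 and 5898 CPM at 41.5 °C and to 17268, 8671 and 6291 CPM at 38.5 °C in replicates 1, 2 and 3. The 18S ribosomal RNA was at 218, 422 and 968 CPM at 41.5 °C and 105, 347 and 554 CPM at 38.5 °C. Ribosomal protein transcripts were thus high in the libraries with much TDG, and 18S RNA was high in those with much TET3. The part of either in these patterns was not tested.

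**Figure D4:**
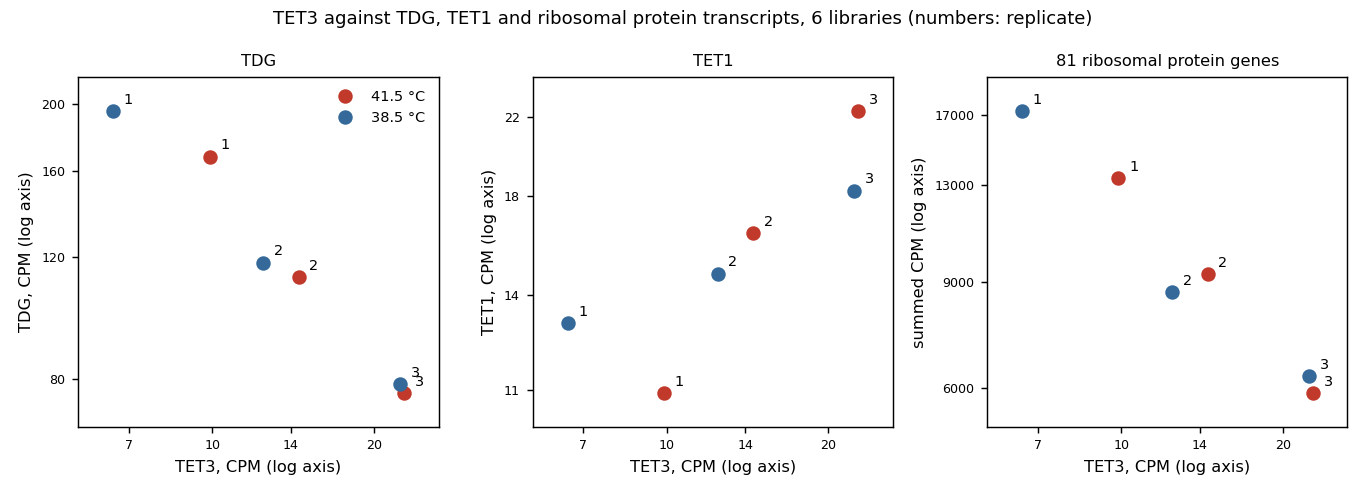
TET3 in CPM (x, log axis) against TDG, TET1 and the sum of 81 ribosomal protein genes in CPM (y, log axes), with 1 point per library, heated libraries in red and control libraries in blue, numbered by replicate. TDG is highest (196 CPM) where TET3 is lowest (6.54 CPM) and lowest (76.4 CPM) where TET3 is highest (22.7 CPM), with libraries of both temperatures along 1 line, and the ribosomal protein sum follows TDG.

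For each gene the 2 transcripts of at least 5 CPM with the most similar profile were found, by the root mean square difference of centred log2(CPM + 1) over the 6 libraries. For TET3 these were CCDC34, a coiled-coil protein (0.083), and H1FOO, the linker histone of the oocyte (0.085), where TET3's own root mean square deviation from its mean was 0.586. H1FOO had 522, 678 and 991 CPM at 41.5 °C, against 330, 628 and 944 CPM at 38.5 °C. For TDG they were ADAMTS5, a matrix metallopeptidase (0.033), and PTPN12, a tyrosine phosphatase (0.036), against its own deviation of 0.501. TET1 was nearest to GREB1L (0.046) and GEMIN6, a part of the SMN complex (0.058), with an own deviation of 0.312. UNG was nearest to LOC110259662, annotated as a zinc finger protein (0.046), and CTR9, a Paf1 complex subunit (0.048), with an own deviation of 0.203. MBD4 was nearest to MFAP1, a spliceosome protein (0.042), and TMSB4X, an actin-binding thymosin (0.056), beside an own deviation of 0.193. SMUG1 was nearest to ALYREF, an mRNA export factor (0.073), and UGDH, a dehydrogenase of UDP-glucose (0.079), beside 0.274. TET2, which varied least (0.144), was nearest to WDR48, a cofactor of deubiquitinases (0.044), and PDZRN4 (0.054).

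The partners and cofactor suppliers of TET enzymes showed no called difference. Of 25 tested genes 11 were higher and 14 lower at 41.5 °C, with a median log2 fold change of -0.04, and 0 passed the edgeR test, 0 had an unadjusted p below 0.05 and DESeq2 called 0. DPPA3, which in the mouse protects methylcytosine from TET3, was at 1347 ± 173 CPM at 41.5 °C and 1841 ± 527 CPM at 38.5 °C (SD, n = 3 each). UHRF2, a reader of hydroxymethylcytosine, was at 1478 ± 270 CPM at 41.5 °C and 1590 ± 379 CPM at 38.5 °C. In CPM the groups did not overlap for 4 of the 25 genes, beside 7.71% of all tested genes, and in TPM 2 of these 4, HELLS and DCAF1, overlapped. GADD45A, a stress-induced gene linked to repair-based demethylation, was at 10.3 ± 2.18 CPM at 41.5 °C and 7.19 ± 1.30 CPM at 38.5 °C (log2 fold change 0.51). CUL4A, scaffold of a ubiquitin ligase that modifies TET enzymes in the mouse, was at 6.56 ± 0.777 CPM at 41.5 °C and 5.28 ± 0.796 CPM at 38.5 °C. HELLS, a chromatin remodeller needed for DNA methylation, was at 41.0 ± 4.73 CPM at 41.5 °C and 47.4 ± 1.23 CPM at 38.5 °C. The remaining one was DCAF1, the substrate receptor of that ligase, named after its values were seen, at 39.7 ± 3.56 CPM at 41.5 °C and 36.5 ± 0.450 CPM at 38.5 °C.

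Downstream of the glycosylases, base excision repair genes showed no called difference either, with 8 of 21 tested genes higher, 13 lower, 0 called by edgeR, 0 at an unadjusted p below 0.05, 0 called by DESeq2 and a median log2 fold change of -0.01. PCNA, the sliding clamp of DNA synthesis and repair, was at 4653 ± 558 CPM at 41.5 °C and 6159 ± 861 CPM at 38.5 °C (SD, n = 3 each; log2 fold change -0.40, 95% interval -0.84 to 0.03). The groups were apart in CPM but overlapped in TPM, where heated replicates 2 and 3, at 5885 and 6020 TPM, exceeded control replicate 1 at 4984 TPM. HMGB1, a chromatin protein that can act in base excision repair, was at 428 ± 43.2 CPM at 41.5 °C and 462 ± 72.8 CPM at 38.5 °C. The core steps are given for their role, with values already known. The apurinic site endonuclease APEX1 was at 24.1 ± 2.23 CPM at 41.5 °C and 28.4 ± 7.67 CPM at 38.5 °C, and the gap-filling polymerase POLB at 147 ± 16.7 CPM at 41.5 °C and 159 ± 7.54 CPM at 38.5 °C. The ligase LIG3 was at 68.4 ± 16.0 CPM at 41.5 °C and 65.1 ± 18.3 CPM at 38.5 °C, while its scaffold XRCC1 was at 0.479 ± 0.333 CPM at 41.5 °C and 0.278 ± 0.130 CPM at 38.5 °C.

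Of 6 tested glycosylases for oxidised or alkylated bases 3 were higher and 3 lower, of 12 tested genes of DNA methylation and its readers 6 were higher and 6 lower, and of 8 genes that supply thymidine or keep uracil out of DNA 1 was higher and 7 lower. In each list edgeR called 0, 0 genes had an unadjusted p below 0.05 and DESeq2 called 0, with median log2 fold changes of -0.01, 0.01 and -0.18. The median of the 6 glycosylases was -0.35 without control replicate 1 and 0.34 without control replicate 3. NEIL3, the most abundant of the other glycosylases, was at 69.8 ± 16.2 CPM at 41.5 °C and 83.4 ± 24.4 CPM at 38.5 °C (SD, n = 3 each). NEIL1, which can stimulate TDG in human cells, had 7.84, 11.8 and 20.04 CPM at 41.5 °C, against 6.69, 11.7 and 23.1 CPM at 38.5 °C, and like TET3 was highest in replicate 3 of each temperature. DNMT1, the maintenance methyltransferase, was at 8075 ± 1749 CPM at 41.5 °C and 8535 ± 1621 CPM at 38.5 °C. ZBTB33, a reader of methylated CpG, was at 321 ± 10.8 CPM at 41.5 °C and 363 ± 31.0 CPM at 38.5 °C. Its CPM lay below the controls in all 3 heated libraries, as in 4.05% of all tested genes, but its TPM overlapped, with 83.9 to 86.4 TPM at 41.5 °C and 76.9 TPM in control replicate 1. TYMS, which makes thymidylate, was at 120 ± 29.3 CPM at 41.5 °C and 128 ± 35.9 CPM at 38.5 °C, and DUT, which destroys dUTP, at 25.04 ± 3.68 CPM at 41.5 °C and 30.8 ± 3.27 CPM at 38.5 °C.

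**Figure D5:**
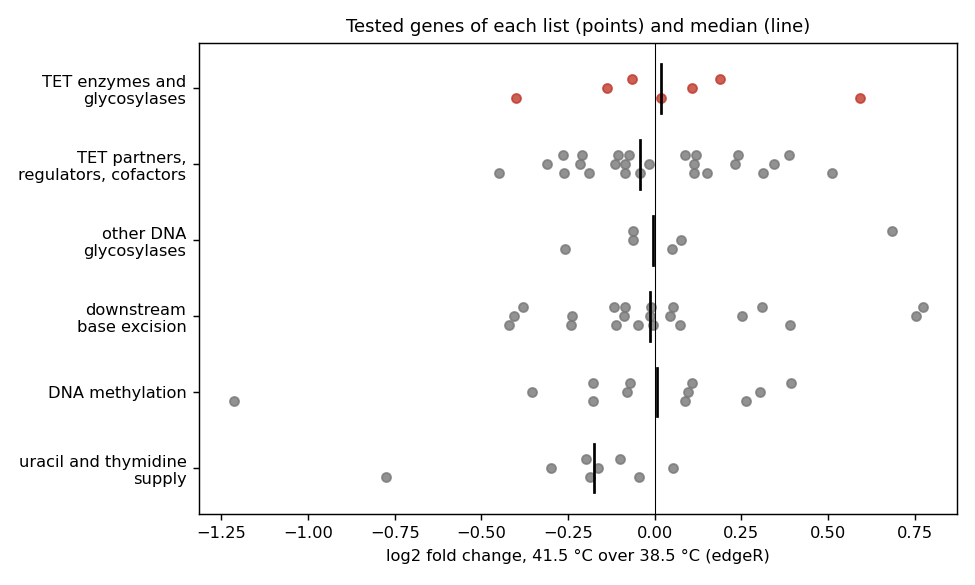
Log2 fold change, 41.5 °C over 38.5 °C, of the tested genes of each list (points, spread vertically for legibility) and the median of each list (black line), with the TET and glycosylase genes in red. The medians lie between -0.18 and 0.02, and among the 7 genes in red MBD4 and SMUG1 form the ends.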

How the data were processed

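Per the labels' protocols, poly(A) RNA went into SMART-Seq v4 libraries. The table deposited by the authors holds raw whole-number read counts and, per the file headers, FPKM and TPM of each gene. StringTie 2.1.3b, Bowtie2, HISAT, HISAT2 2.1.0, Trimmomatic 0.38 and the build Sscrofa11.1 are named, without roles, per the submitters' processing notes. How reads were counted is not stated. Columns were checked against each sample's own table, where 99.4% to 99.5% of FPKM values were equal within 1e-05, against at most 27.9% in any other. The 24 rows without a symbol, which are tRNAs and the 12S and 16S rRNAs (0.527% to 0.658% of counts), were kept. Gene positions came from RefSeq (30352 of 30376 genes matched by Entrez ID), and those of the 7 genes equalled the files'.

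The main test of the counts was the quasi-likelihood test of edgeR 4.0.16 under R 4.3.3 (TMM scaling, default filter, group as the single term, Benjamini-Hochberg over 16056 genes, threshold 0.05). DESeq2 1.42.0, limma 3.58.1 on log2(FPKM + 1), log2(FPKM + 0.1) and log2(TPM + 1) for genes with a mean of at least 1, other scalings, no filter, a replicate block and leaving out each library were alternatives. The fits were tried on simulated counts. The genes and lists were chosen with earlier results of these data known. Named were all 7 genes, from each pathway list the 2 highest by TPM and up to 3 with non-overlapping groups and the smallest p, the 2 nearest profiles per gene, and overlapping genes; others are marked. OGA, HAS2, FOXL2NB, HBA and H1-8 of the lists matched no symbol. A gene that this rule names is not reported here.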

Additional observations from a re-analysis of the deposited data

How the results depend on the processing

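Of the 7 genes 0 were called under any of the 14 alternatives, nor was any gene of the 5 pathway lists. MBD4 (-0.46 to -0.21 on the log2 scale) and SMUG1 (0.38 to 0.76) kept their direction in all alternatives that gave a value, 14 and 11. Where 1 library was left out, this follows from groups that do not overlap. The mean of SMUG1 was below the minimum of 1 FPKM or TPM in the limma fits. In 14 of 95 gene and alternative pairs the direction turned, always without a call. TET2 was at 0.029 with no scaling beyond the library total, 0.024 on log2(FPKM + 1), 0.044 on log2(FPKM + 0.1), 0.026 on log2(TPM + 1) and 0.040 without control replicate 2. With 1 library left out, the log2 fold changes ranged from -0.14 to 0.33 for TET1, -0.17 to 0.04 for TET2, -0.15 to 0.73 for TET3, -0.47 to 0.27 for TDG and -0.12 to 0.21 for UNG. The cause was not tested. By mean TPM, TET2 ranked 6 and TET3 5, and TET2 5 and TET3 6 without heated replicate 3 or without control replicate 3. Over all genes edgeR called 0, and 3 with the replicate block, 5 with DESeq2 and 1 with no filter on low counts. Same-numbered libraries deviated from their group means with r = 0.516, 0.00800 and 0.586 for numbers 1, 2 and 3. Numbers 1 and 3 thus went together across temperatures, and number 2 did not. Heated replicate 1 had r = -0.521 with control replicate 3, and heated replicate 3 had r = -0.566 with control replicate 1. Heated replicate 2 correlated best with control replicate 1 (0.141). The labels do not say that a number marks a shared batch, so the main test did not pair the libraries. With the replicate block 0 of the 7 genes were called, and 2 had an unadjusted p below 0.05, MBD4 (log2 fold change -0.40) and SMUG1 (0.57), with adjusted p of 0.518 and 0.527 by edgeR, where 1485 of 16056 genes had an unadjusted p below 0.05 under the block and 297 without it. With no scaling beyond the library total the median of all genes was 0.08, against -0.02. Over all alternatives the list medians ranged on both sides of 0 except for uracil supply (-0.23 to -0.07), from -0.14 to 0.12 for the TET partners, -0.10 to 0.07 for downstream repair and -0.10 to 0.10 for DNA methylation. That of the 6 other glycosylases was -0.35 without control replicate 1 and 0.34 without control replicate 3. XRCC1 rests on 4 to 26 reads per library, so its values carry a large counting error.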
